A study of Populus deltoides x Populus x canadensis with 6 samples.

Results

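The class III HD-ZIP genes of poplar were described in stem RNA of a brassinosteroid receptor mutant and of wild type plants. The family was taken as 8 gene identifiers, PtrHB1 to PtrHB8, fixed by a list, out of 35792 rows of the deposited table. The list names genes by family and sets no threshold on their values. It was chosen with earlier results of these data known. Gene names are missing from the table, so the PtrHB names and the Arabidopsis type of each gene (REVOLUTA, PHB/PHV, CORONA or ATHB8) come from that list and were not checked against sequence. The tested line, labelled pdbri1-1;2;3;6, carries mutations in 4 members of the poplar BRI1 family, and the other group is the wild type of the same hybrid clone, Nanlin 895 (Populus deltoides crossed with Populus x canadensis). All plants were 45 days old, had greenhouse days of 16 h light and 8 h darkness, and received no further treatment that the labels name. Each library came from the basal 2 cm of the stem, stripped of leaves, of 30 plants pooled together. There were 3 such pools per genotype, so the p-values below rest on the spread between pools. Those of single genes also borrow spread from all tested genes, so they are not set by a gene's own 3 pools alone. The sources used here do not say whether the mutant is 1 line or several. Levels of the BRI1 genes and of marker genes for stem tissues were not analysed here, so neither the genotype label nor the tissue label was checked against transcripts. Libraries held 17752822 to 21096052 counts.

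Class III HD-ZIP proteins are plant transcription factors with a homeodomain, a leucine zipper and a START domain. In Arabidopsis they set the upper side of leaves and the inner, xylem side of vascular bundles, and the microRNAs miR165 and miR166 cut their transcripts, which limits where they accumulate. In the stem they are known from procambium, cambium and young xylem, and in cultured Zinnia cells brassinosteroids raise the transcripts of several members. BRI1 is the receptor kinase at the plasma membrane that binds brassinosteroids, a class of plant steroid hormones. The study's question is how these hormones act on the cambium of woody stems, and the comparison here answers how the transcripts of the family differ between the genotypes.

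Members of the family were called in both directions. PtrHB3, of the PHB/PHV type, fell 2.13-fold in the mutant stem, and PtrHB1, of the REVOLUTA type, fell by 0.23 on the log2 scale. PtrHB6 of the CORONA type and PtrHB7 and PtrHB8 of the ATHB8 type rose by 0.37, 0.16 and 0.43 on the log2 scale, and PtrHB2, PtrHB4 and PtrHB5 did not pass the test. These log2 fold changes (mutant over wild type) are from edgeR's quasi-likelihood test on counts scaled by TMM, a factor per library that takes most genes as not shifted, and a gene was called at a Benjamini-Hochberg adjusted p under 0.05 over 27382 tested genes. All 8 members passed the filter on low counts. With 3 called higher and 2 called lower, 5 of 8 members were called, against 64.1% of all tested genes (33.1% higher and 31.0% lower), so the number of calls was close to that of the stem transcriptome at large. With library totals in place of TMM 6 of 8 were called (64.0% of tested genes), with DESeq2 4 of 8 (47.5% of the 32984 genes it tested), and against a fold of 1.2 by edgeR's glmTreat 3 of 8 (39.4% of tested genes). DESeq2 was run without the filter on low counts, so its share is over a wider set of genes than the others. For comparison, edgeR without that filter called 18564 of 32985 genes. FPKM did not overlap between the genotypes for 5 of 8 members, against 67.3% of all tested genes. The median log2 fold change was 0.03 over the 8 members and 0.01 over all tested genes, and the median size without its sign was 0.20 for the members and 0.32 for all tested genes. In whole stem pieces, fewer cells of a type and less RNA per cell cannot be told apart.

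Levels are given below as the authors' FPKM, a count divided by gene length and by the total count of the library. FPKM thus follows library totals and not TMM. With library totals the median log2 fold change of all tested genes was 0.13, against 0.01 with TMM, so a value in FPKM stands about that much higher in the mutant than the tested fold change.

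**Figure D1:**
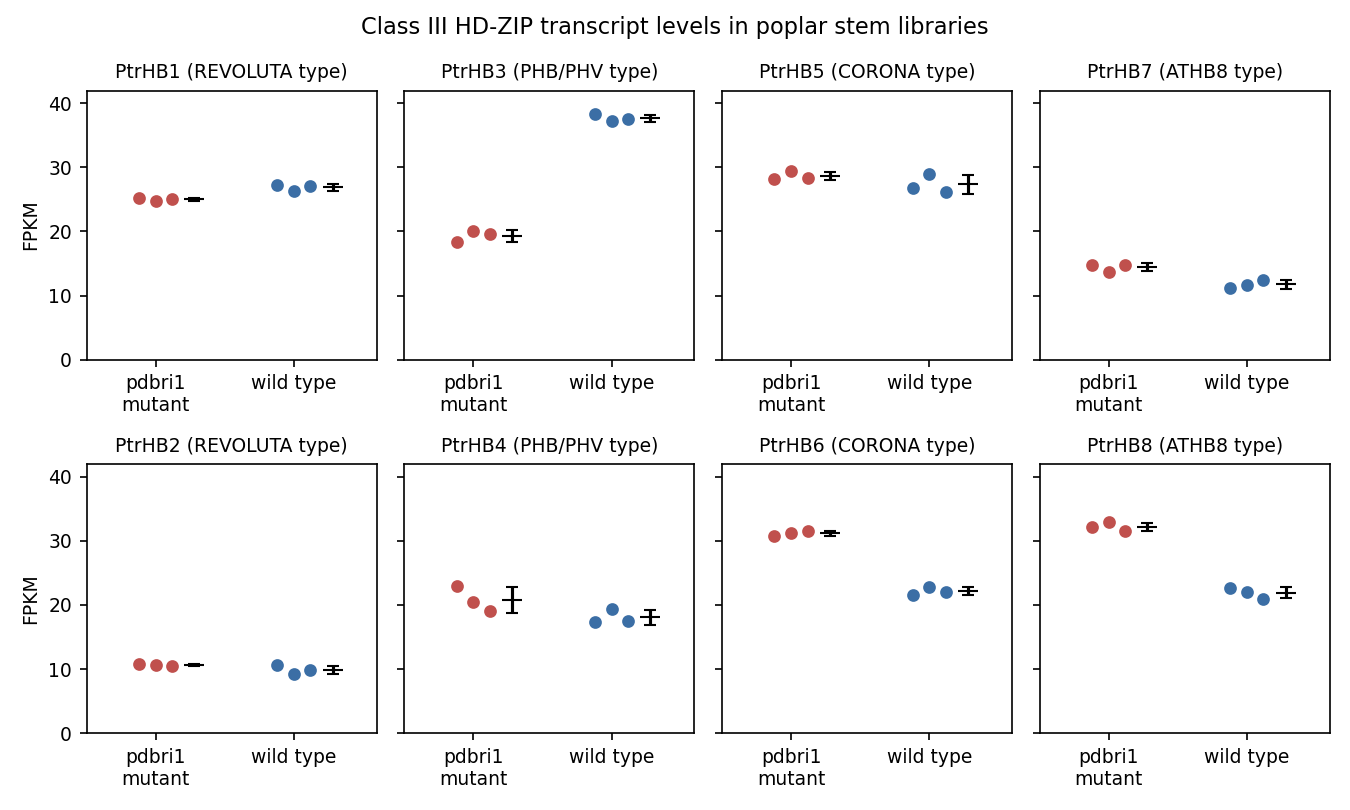
FPKM (vertical axis, from 0) of the 8 class III HD-ZIP genes in the 3 pdbri1 mutant libraries (red) and the 3 wild type libraries (blue), with the mean and SD of each genotype in black. PtrHB3 lies near 19.3 FPKM in the mutant and 37.7 FPKM in the wild type, while PtrHB6 and PtrHB8 lie higher in every mutant library than in any wild type library.

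REVOLUTA in Arabidopsis acts in the shoot meristem, in lateral meristems and in the development of fibres between bundles, and a poplar gene of this type is known for its part in the initiation of cambium. PtrHB1 (Potri.009G014500.v4.1, on chromosome 9 by its identifier, 3808 bp) had 25.3, 24.7 and 25.0 FPKM in the mutant libraries, against 27.2, 26.3 and 27.1 FPKM in the wild type libraries. All 3 mutant libraries lay below all 3 wild type libraries. Its log2 fold change was -0.23 (SE 0.041, adjusted p = 3.79e-06, edgeR), and with library totals it was -0.10 (adjusted p = 0.0229). That call was lost with limma on log2(FPKM + 1) (-0.10, adjusted p = 0.0514) and when tested against a fold of 1.2 (adjusted p = 0.841, edgeR's glmTreat). PtrHB2 (Potri.004G211300.v4.1, chromosome 4, 4267 bp) had 10.8, 10.7 and 10.5 FPKM in the mutant, against 10.6, 9.3 and 9.8 FPKM in the wild type. The genotypes overlapped. Its log2 fold change was -0.01 with TMM and 0.11 with library totals, and neither was called (adjusted p = 0.844 and 0.071, edgeR). The 95% interval with TMM ran from -0.12 to 0.09.

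PHABULOSA and PHAVOLUTA are the Arabidopsis members best known for the upper identity of leaves and, in the root, for the choice between protoxylem and metaxylem. PtrHB3 (Potri.001G372300.v4.1, chromosome 1, 3752 bp) was counted 1422, 1337 and 1348 times in the mutant libraries, against 2583, 2855 and 2968 times in the wild type libraries. In FPKM these are 18.3, 20.1 and 19.6 in the mutant, against 38.3, 37.2 and 37.5 in the wild type. The highest mutant library stood far below the lowest wild type library. The log2 fold change was -1.09 (SE 0.042, adjusted p = 1.29e-27, edgeR), which lies at percentile 4.57 of all tested genes, and 5.19% of tested genes were called and at least 2-fold lower in the mutant. With library totals it was -0.97. Leaving out any 1 library gave -1.12 to -1.05.

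Its paralog PtrHB4 (Potri.011G098300.v4.1, chromosome 11, 3625 bp) was not called. It had 23.0, 20.4 and 19.0 FPKM in the mutant, against 17.3, 19.4 and 17.5 FPKM in the wild type. The genotypes overlapped, and mutant replicate 1 stood above the other mutant libraries. The mutant libraries varied by 9.52% around their mean after TMM scaling, the widest spread of any member, and the wild type libraries by 6.11%. Its log2 fold change was 0.08 (95% interval -0.03 to 0.20, adjusted p = 0.205, edgeR). PtrHB4 was called higher with library totals (0.21, adjusted p = 0.00359) and without mutant replicate 3 (0.14, adjusted p = 0.0182, both edgeR). Without mutant replicate 1 the value was 0.00.

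CORONA, also called ATHB15, restrains meristem size in Arabidopsis together with PHB and PHV, and the poplar gene of this type is known for its effect on lignification of stem tissues. PtrHB5 (Potri.001G188800.v4.1, chromosome 1, 4023 bp) had 28.2, 29.4 and 28.3 FPKM in the mutant, against 26.8, 29.0 and 26.2 FPKM in the wild type. The genotypes overlapped. Its log2 fold change was -0.06 with TMM (95% interval -0.14 to 0.03) and 0.07 with library totals, with neither called (adjusted p = 0.234 and 0.161, edgeR). PtrHB6 (Potri.003G050100.v4.1, chromosome 3, 4475 bp) was counted 2858, 2487 and 2585 times in the mutant and 1734, 2087 and 2083 times in the wild type. It had 30.8, 31.3 and 31.5 FPKM in the mutant, against 21.6, 22.8 and 22.1 FPKM in the wild type. Every mutant library lay above every wild type library. PtrHB6 was 1.29-fold higher in the mutant (log2 fold change 0.37, 95% interval 0.29 to 0.45, adjusted p = 1.52e-11, edgeR).

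ATHB8 is an early marker of procambium in Arabidopsis, switched on by the auxin response factor MONOPTEROS, and is linked to xylem differentiation. PtrHB8 (Potri.006G237500.v4.1, chromosome 6, 3614 bp) was counted 2405, 2110 and 2097 times in the mutant and 1472, 1631 and 1603 times in the wild type. It had 32.1, 32.9 and 31.6 FPKM in the mutant, against 22.7, 22.1 and 21.0 FPKM in the wild type. The genotypes did not overlap. PtrHB8 was 1.35-fold higher in the mutant, the largest rise among the members (log2 fold change 0.43, 95% interval 0.35 to 0.52, adjusted p = 1.1e-12, edgeR). This rise lies at percentile 75.2 of the log2 fold changes of all tested genes, and that of PtrHB6 at percentile 73.1.

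PtrHB7 (Potri.018G045100.v4.1, chromosome 18, 3525 bp) had 14.7, 13.7 and 14.8 FPKM in the mutant, against 11.2, 11.6 and 12.5 FPKM in the wild type. The lowest mutant library stood above the highest wild type library by a small margin, which after TMM scaling was 46.3 against 46.2 CPM (counts scaled to a common library total). Its log2 fold change was 0.16 (95% interval 0.06 to 0.27, adjusted p = 0.00653, edgeR). That call was lost without wild type replicate 1 (0.13, adjusted p = 0.0571, edgeR) with DESeq2 (0.16, adjusted p = 0.0512) and when tested against a fold of 1.2 (adjusted p = 1.0, edgeR's glmTreat), and with library totals the value was 0.29 (adjusted p = 9.17e-06, edgeR).

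**Figure D2:**
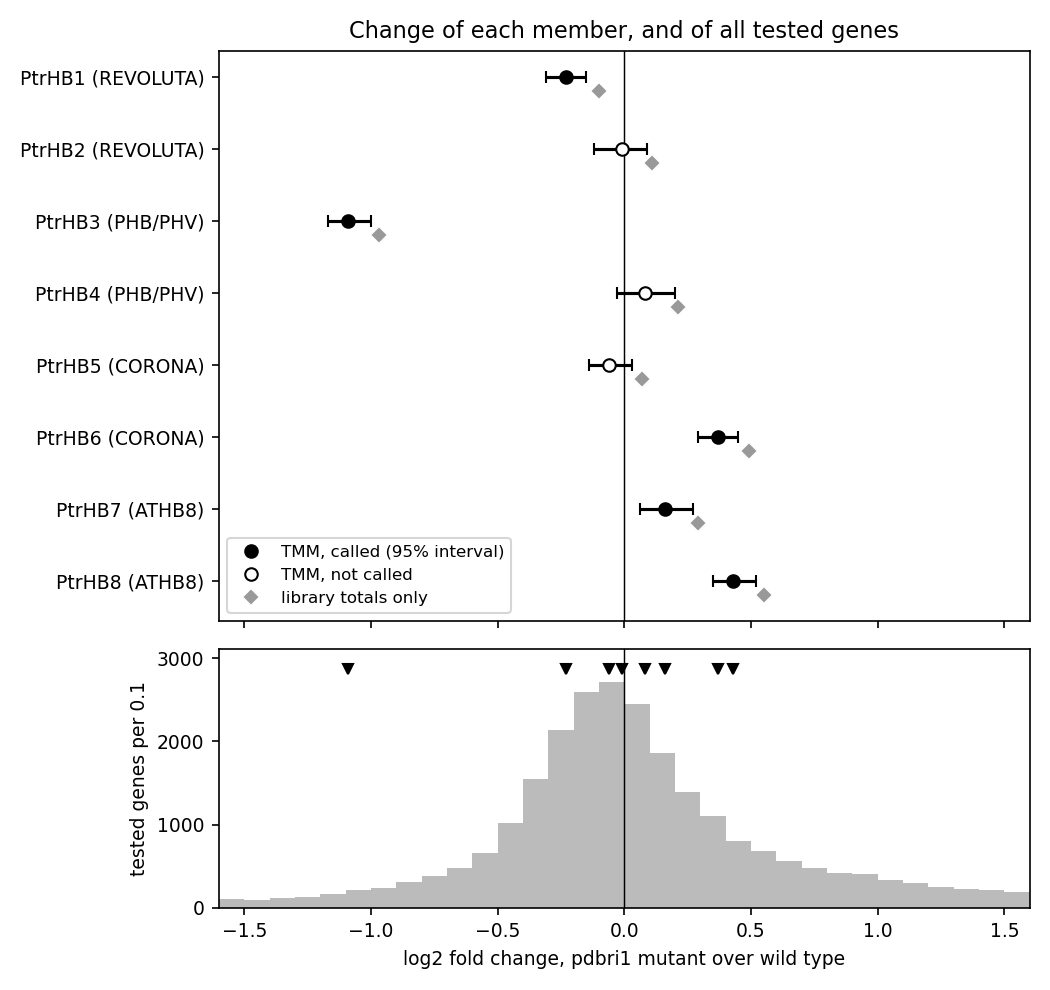
Upper panel, log2 fold change (horizontal axis, pdbri1 mutant over wild type) of each class III HD-ZIP gene with TMM scaling and its 95% interval (circles, filled where called) and with library totals only (grey diamonds). Lower panel, the number of tested genes per 0.1 of log2 fold change, drawn between -1.6 and 1.6, with the members as triangles. PtrHB3 at -1.09 stands apart from the other members, which lie between -0.23 and 0.43, and PtrHB2 and PtrHB5 lie on different sides of 0 with the 2 scalings.

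Each type is present as 2 paralogs in poplar, and a ratio of both within a library does not depend on how libraries are scaled. The FPKM of PtrHB3 over that of PtrHB4 was 0.793, 0.986 and 1.03 in the mutant libraries, against 2.22, 1.92 and 2.14 in the wild type libraries. The log2 count ratio was -0.05 ± 0.202 in the mutant and 1.11 ± 0.107 in the wild type (SD, n = 3 each), a difference of -1.17 (two-sided exact permutation p = 0.1). Within the CORONA type, the FPKM of PtrHB5 over that of PtrHB6 was 0.917 ± 0.0196 in the mutant and 1.23 ± 0.0428 in the wild type (SD, n = 3 each), so the more abundant paralog differed between genotypes. The log2 count ratio of this pair differed by -0.43 (two-sided exact permutation p = 0.1).

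The other pairs kept the same order of their paralogs in all 6 libraries. The FPKM of PtrHB1 over that of PtrHB2 was 2.35 ± 0.04 in the mutant and 2.72 ± 0.136 in the wild type (SD, n = 3 each), a difference in log2 count ratio of -0.21 (two-sided exact permutation p = 0.1). The FPKM of PtrHB7 over that of PtrHB8 was 0.448 ± 0.0282 in the mutant and 0.54 ± 0.0522 in the wild type (SD, n = 3 each), a difference of -0.27 (two-sided exact permutation p = 0.1). In each of the 4 pairs the ratios of the genotypes did not overlap. How often this holds for ratios of other gene pairs was not computed. For single genes, FPKM did not overlap in 67.3% of all tested genes, so this count is not read as particular to the family. Adjusted over the 4 pairs each p stayed at 0.1, and 0.1 is the smallest this design can give, so none of these differences could pass 0.05. The paralogs are related in sequence, and the sources used here do not state the rule for reads that match both, so the split of counts within a pair is uncertain to that extent.

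**Figure D3:**
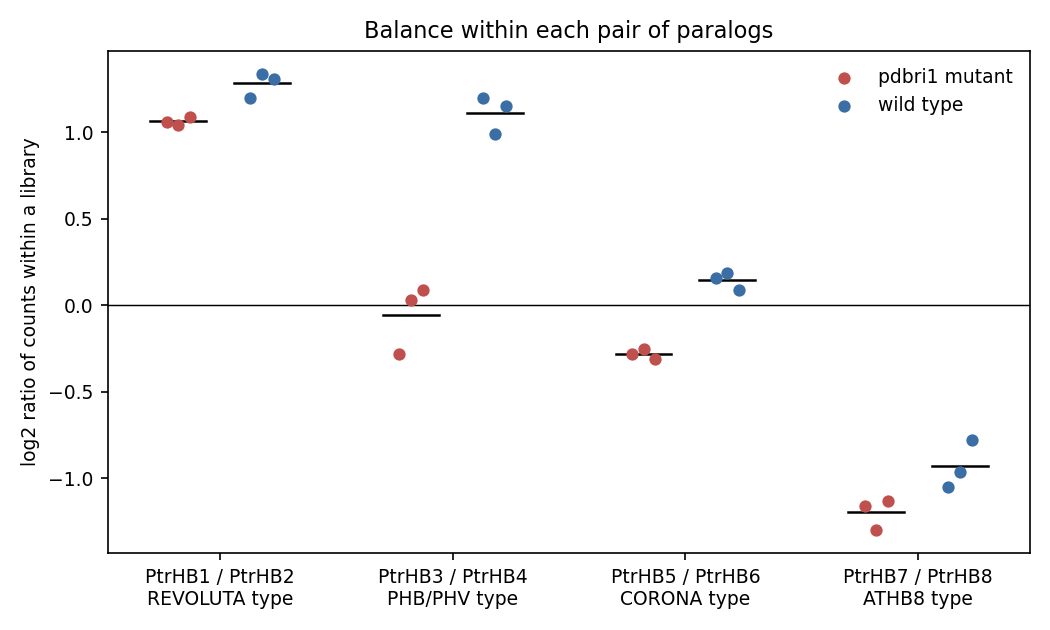
Log2 ratio of the counts of the 2 paralogs of each type within a library (vertical axis), for 3 pdbri1 mutant libraries (red, left of each pair) and 3 wild type libraries (blue, right), with lines at the means. The genotypes do not overlap in any pair, though how often this holds for other gene pairs was not computed. The widest gap is that of PtrHB3 and PtrHB4, with means of -0.05 in the mutant and 1.11 in the wild type.

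The summed level of the family differed little between genotypes while its make-up differed. The 8 members together had 183, 183 and 180 FPKM in the mutant libraries, against 176, 178 and 174 FPKM in the wild type libraries. On a log2 scale this is 0.05 in FPKM, and -0.07 once FPKM is rescaled by TMM factors, so the direction depends on the scaling. PtrHB3 supplied 10.6% ± 0.546 of the sum in the mutant and 21.4% ± 0.448 in the wild type (SD, n = 3 each). PtrHB8 supplied 17.7% ± 0.26 in the mutant and 12.5% ± 0.408 in the wild type, and PtrHB6 17.1% ± 0.327 in the mutant and 12.6% ± 0.291 in the wild type (SD, n = 3 each). A share can differ because other members moved, so these values restate the levels on a scale free of library size.

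By type, the PHB/PHV pair summed to 41.3, 40.4 and 38.6 FPKM in the mutant, against 55.6, 56.6 and 55.0 FPKM in the wild type, and its share of the family was 22.0% ± 0.574 in the mutant and 31.7% ± 0.107 in the wild type (SD, n = 3 each). It held the largest share of the 4 types in each wild type library. The ATHB8 pair summed to 46.8, 46.6 and 46.4 FPKM in the mutant, against 33.9, 33.7 and 33.6 FPKM in the wild type, or 25.6% ± 0.152 and 19.2% ± 0.188 of the family (SD, n = 3 each). The SD of this sum was 0.192 FPKM in the mutant and 0.166 FPKM in the wild type. PtrHB7 and PtrHB8 alone had larger SDs, 0.636 and 0.644 FPKM in the mutant and 0.678 and 0.84 FPKM in the wild type. Their deviations thus offset each other in these libraries, and the small SD of the sum is not read as uniformity. The CORONA pair summed to 59.8 ± 0.872 FPKM in the mutant and 49.5 ± 1.99 FPKM in the wild type, and it held the largest share of the 4 types in each mutant library. The REVOLUTA pair summed to 35.7 ± 0.401 FPKM in the mutant and 36.8 ± 1.11 FPKM in the wild type (SD, n = 3 each), with ranges of 35.3 to 36.1 and 35.6 to 37.8 FPKM that overlapped.

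**Figure D4:**
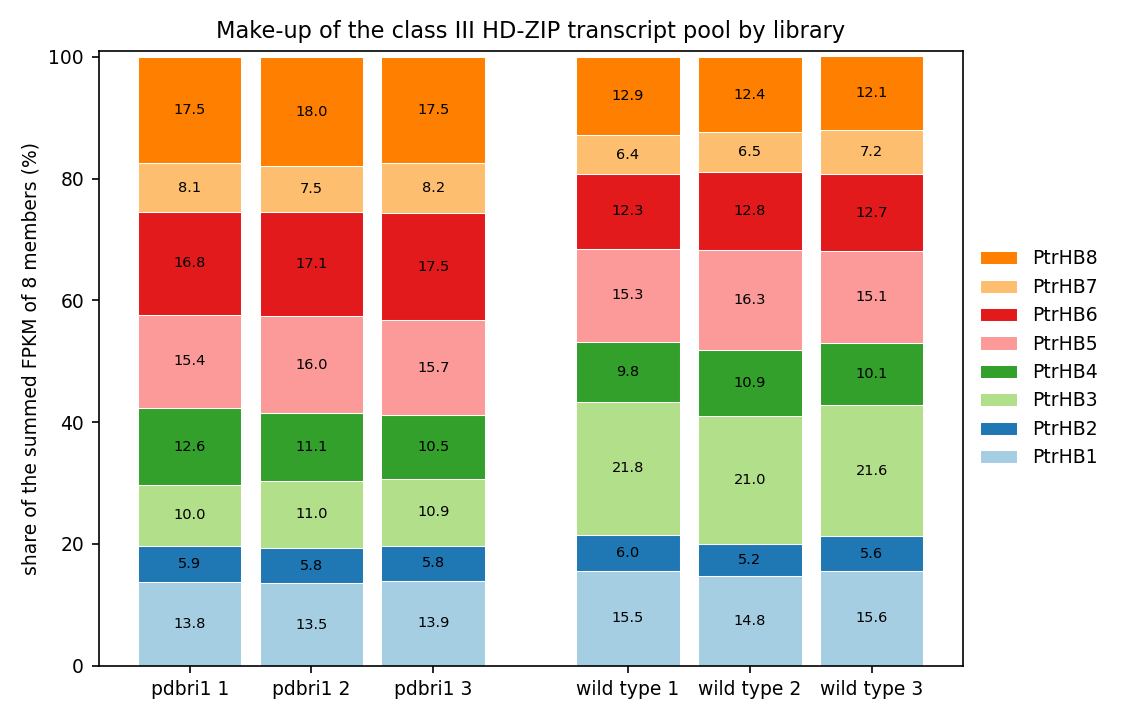
Share of the summed FPKM of the 8 class III HD-ZIP genes (vertical axis, percent) supplied by each gene in the 3 pdbri1 mutant libraries (left) and the 3 wild type libraries (right). PtrHB3 (light green) takes on average 10.6% of the sum in the mutant and 21.4% in the wild type, and PtrHB6 and PtrHB8 take larger shares in the mutant.

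The order of the members by level per length differed accordingly. In the mutant, PtrHB8 was first with a mean of 32.2 FPKM, followed by PtrHB6 at 31.2, PtrHB5 at 28.6 and PtrHB1 at 25.0 FPKM, then PtrHB4 at 20.8, PtrHB3 at 19.3, PtrHB7 at 14.4 and PtrHB2 at 10.7 FPKM. Of these neighbours in the order, PtrHB4 and PtrHB3 overlapped between libraries, and the others did not. In the wild type, PtrHB3 was first at 37.7 FPKM, above PtrHB5 at 27.3, PtrHB1 at 26.9, PtrHB6 at 22.2, PtrHB8 at 21.9, PtrHB4 at 18.1, PtrHB7 at 11.8 and PtrHB2 at 9.89 FPKM. There PtrHB5 and PtrHB1, and likewise PtrHB6 and PtrHB8, overlapped. PtrHB3 thus stood 6th of 8 in the mutant and first in the wild type, and PtrHB7 and PtrHB2 were the lowest members of both genotypes.

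All members lay above the median tested gene in FPKM in every library. PtrHB2, the lowest, lay near that median, with means of 10.7 FPKM in the mutant and 9.89 FPKM in the wild type. The FPKM of the members lay between percentiles 65.7 and 91.6 of all rows of their library, which include 2807 rows without any count. The median tested gene had 8.87 to 8.97 FPKM in the mutant and 7.68 to 7.72 FPKM in the wild type. Counts per member and library ran from 710 to 2968, for which counting error alone is 1.84% to 3.75% of the count. The replicates of a genotype varied by 1.02% to 9.52% around their mean after TMM scaling.

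The members are spread over 7 chromosomes by their identifiers. Of the 5 tested genes on each side of every member, 80 in all, 50 were called, 19 higher and 31 lower, against 64.1% of all tested genes called, 33.1% higher and 31.0% lower. As shares of the 80 these are 62.5%, 23.8% and 38.8%, and neighbours of each member were called in both directions. Around PtrHB3, 5 of 10 neighbours were called lower and 1 was called higher, and the same held around PtrHB1 and PtrHB2. The neighbours of PtrHB3 had a median log2 fold change of -0.23, against -1.09 for PtrHB3. Their values ran from -1.27 to 0.41, so at least 1 of them fell further than PtrHB3. Around PtrHB8 the median was 0.00, with 2 called higher and 3 lower, and around PtrHB6 it was -0.05, with 3 called higher and 4 lower. Around PtrHB7 the median was 0.04, with 4 called higher and 2 lower and with values from -6.60 to 5.33.

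Genes were sought whose pattern over the 6 libraries was most like that of PtrHB3, the member with the largest change, or of the summed members. Likeness was the Euclidean distance between profiles of log2 counts scaled by TMM, each centred on its mean. The candidates were 15431 genes with a mean FPKM within 2-fold of a member. A gene chosen this way has a fold change near that of its target by construction. The nearest to PtrHB3 was Potri.019G102900.v4.1, on chromosome 19, at a distance of 0.0402. It had 29.1 ± 1.94 FPKM in the mutant and 57.0 ± 1.18 FPKM in the wild type (SD, n = 3 each) and a log2 fold change of -1.10. Next came Potri.005G050600.v4.1, on chromosome 5, at 0.0581, with 29.7 ± 1.76 FPKM in the mutant and 58.3 ± 0.478 FPKM in the wild type (SD, n = 3 each). The nearest to the summed members was Potri.003G144700.v4.1, on chromosome 3, at a distance of 0.0213. It had 8.51 ± 0.0283 FPKM in the mutant and 8.23 ± 0.0497 FPKM in the wild type (SD, n = 3 each). Next came Potri.006G234100.v4.1, on chromosome 6, at 0.0251, with 23.6 ± 0.176 FPKM in the mutant and 22.8 ± 0.264 FPKM in the wild type (SD, n = 3 each). None of these identifiers is paired with a name in the table.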

How the data were processed

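RNA was sequenced from 6 stem libraries. The deposited table gives raw counts for each gene, and the deposited FPKM columns hold FPKM, per the file headers; all matched 1 sample by title. Dividing counts by FPKM and column totals gave whole lengths (within 0.01 bp) for 100% of nonzero values: the authors' FPKM use 1 length per gene and the column totals. Aligner, counter, build, strand setting and treatment of multiply matching reads are not stated in the sources used here. Replicates differed beyond sampling noise (chi-square per gene 1.84 to 2.62, where noise gives about 1).

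Counts were tested in edgeR 4.0.16 (R 4.3.3): filterByExpr (minimum count 10, minimum total 15), TMM, glmQLFit with robust=TRUE, glmQLFTest, no block, Benjamini-Hochberg adjustment over 27382 genes. The SE is the log2 fold change over the square root of F. The method was tested on simulated counts with known changes: false calls exceeded the nominal 5% in each run drawn with every gene's own dispersion. They stayed under it in each run with the trended dispersion, a version added after the first had been seen. Far fewer genes were changed in the simulation than were called in the data. Its share of false calls therefore does not give the error rate of the calls reported here. Alternatives used limma 3.58.1 and DESeq2 1.42.0. Pair ratios were compared by two-sided exact permutation tests over libraries. The named genes are the 8 members and the 2 nearest profiles to PtrHB3 and to their sum. Members and lists were chosen with earlier results of these data known. Lists of related genes and cell type markers by product name had 0 matches, since 0 rows carry a description, and were not run. No sequence is shown.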

Additional observations from a re-analysis of the deposited data

How the results depend on the processing

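PtrHB3, PtrHB6 and PtrHB8 kept direction and call under all 17 alternatives, with log2 fold changes of -1.12 to -0.93, 0.35 to 0.49 and 0.40 to 0.55. With a fold of 1.2 as the null, stricter by construction, 3 members were called, 1 of them lower, and PtrHB1 (-0.23, adjusted p = 0.841) and PtrHB7 (0.16, adjusted p = 1.0) were not. With limma on log2(FPKM + 1), PtrHB1 was -0.10 (adjusted p = 0.0514), which left 1 member called lower. PtrHB2 turned to 0.11 with library totals and log2(FPKM + 0.1), and to 0.10 with log2(FPKM + 1). PtrHB5 turned to 0.07 in these 3 settings. PtrHB4 was called at 0.21 with library totals, 0.19 with log2(FPKM + 1) and 0.20 with log2(FPKM + 0.1). These settings follow library totals. PtrHB7 was 0.16 with DESeq2 and not called (adjusted p = 0.0512); the cause was not tested.

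With 1 library left out at a time, 4 to 6 members were called, and log2 fold changes of -0.06 to 0.03 for PtrHB2 (above 0 without wild type replicate 1), 0.00 to 0.14 for PtrHB4 and 0.13 to 0.21 for PtrHB7. The pair ratios had differences of -0.25 to -0.19 (PtrHB1 over PtrHB2), -1.24 to -1.05 (PtrHB3 over PtrHB4), -0.45 to -0.40 (PtrHB5 over PtrHB6) and -0.33 to -0.19 (PtrHB7 over PtrHB8) under the alternatives. Their direction could not turn, so that it was kept is no further support. The genotypes did not overlap, so leaving out 1 library cannot reverse a difference. FPKM use 1 length per gene, and adding 1 hardly alters counts of 710 or more. The summed level was -0.07 with TMM and 0.09 in TPM. The replicate numbers were not found to pair the samples: deviations from the group means correlated between same-numbered libraries by -0.0118, -0.0225 and -0.00453, and with the replicate block 5 members were called, PtrHB3 at -1.09, PtrHB6 at 0.37, PtrHB8 at 0.43, PtrHB1 at -0.23 and PtrHB7 at 0.17. Alternatives for the lists of related genes were not run, as no list had a match. A member that missed the threshold may still differ by less than these pools can show.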
